A study of Mus musculus with 9 samples.

Results

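The comparison set fibroblastic reticular cells (FRCs) of tumour-draining lymph nodes at day 11 against the same cells at day 4. Its members were the probes of an Illumina mouse bead array with a detection p-value, the chance that a background bead is as bright, under 0.01 on at least 3 of the 6 arrays. These were 14287 of 45281 probes, and 11967 of them carried 1 gene symbol, which gave 7893 of the 19057 genes named on the array, each read by its brightest probe. The groups were FRCs of nodes draining a tumour at day 11, FRCs of nodes draining a tumour at day 4 and, for orientation, FRCs of nodes draining a PBS injection site, with 3 arrays each. All mice were female C57BL/6 animals with no other genotype given, and each array held FRCs pooled from the 2 brachial nodes of 1 animal. The labels do not name the tumour, the age of the mice or how FRCs were isolated. RNA of all groups went through whole transcriptome amplification before labelling.

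FRCs are the fibroblasts that build the conduit-containing scaffold of the lymph node. They secrete the chemokines Ccl19 and Ccl21, which bring T cells and dendritic cells together through Ccr7, and interleukin-7, which keeps naive T cells alive. They also lay down collagen-rich fibres and contract through actomyosin, which lets a node swell when it drains an inflamed site or a tumour. Beside T zone FRCs, nodes hold CD34+ adventitial fibroblasts around larger vessels and in the capsule region.

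The arrays carried the FRC markers named in the lists. Pdgfra and Pdpn, receptor and surface glycoprotein of fibroblasts, and the FRC chemokines Ccl19 and Ccl21a were detected on all 6 arrays. Of 28 FRC identity genes, 25 were tested. Pdgfrb, a growth factor receptor of FRCs and pericytes, was near background, with log2 levels of 6.49, 5.63 and 5.72 on the day 11 arrays, none detected, against 6.11, 6.36 and 6.58 on the day 4 arrays. Levels are normalized log2 intensities throughout, and a difference of 1 is a doubling. Day 11 arrays detected 11850 ± 2618 probes, day 4 arrays 16129 ± 1310 and PBS arrays 14455 ± 2597 (SD, n = 3 each). The lowest level that counted as detected was 6.56, 5.95 and 6.88 on the day 11 arrays, against 5.57, 5.88 and 5.83 on the day 4 arrays. A gene at a level of about 6 could therefore be detected at day 4 and missed at day 11. Day 11 arrays correlated with their own group at a mean of 0.915 across member probes, and day 4 arrays at 0.854. In bulk samples, fewer cells of a type and less RNA per cell cannot be told apart.

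Of the 7893 genes, 1 passed limma's test at a Benjamini-Hochberg adjusted p of 0.05, which is 0.0127% of genes, and it was higher at day 11. No gene was lower past that threshold. At an unadjusted p under 0.05 there were 555 genes, or 7.03%, of which 276 were higher (3.5%) and 279 lower (3.53%). The 3 arrays of each day did not overlap for 1267 genes, or 16.1% of those tested, with 659 higher (8.35%) and 608 lower (7.7%) at day 11. The median difference over all genes was 0.02, with quartiles of -0.25 and 0.30, and 52.6% of genes had a difference above 0. Counts and medians of gene groups are given below against these values. They describe the arrays and carry no test of their own. The other 2320 probes had no single symbol, and 144 of them had an unadjusted p under 0.05 and 0 passed the adjusted threshold in limma.

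The gene that passed was Ighg1, the heavy chain constant region of the antibody class IgG1, a product of switched B cells and plasma cells. Its levels were 10.04, 9.80 and 8.35 on the day 11 arrays, against 4.92, 4.80 and 5.19 on the day 4 arrays and 5.29, 4.81 and 4.80 on the PBS arrays. Every day 11 array stood far above all other arrays, and the gene was detected on no day 4 or PBS array. It met the filter only through the day 11 arrays, which favoured a higher value at day 11. Ighg1 rose by 4.43 ± 0.42 (log2, SE, n = 3 each) with an adjusted p of 0.0146 in limma, and since day 4 gave only a bound, it was at least 12.4-fold higher at day 11. The spread within day 11 was wide, with replicate 3 lowest. The adjusted p was 0.142, 0.0856 and 0.111 without day 4 replicates 1, 2 and 3, and 0.0983, 0.0791 and 0.00105 without day 11 replicates 1, 2 and 3. So the call was lost when any 1 day 4 array or day 11 replicate 1 or 2 was left out, while the difference stayed between 4.15 and 5.0. Without background correction it was 2.78. With no filter the adjusted p of Ighg1 in limma was 0.136.

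The other tested genes of antibody-secreting cells did not share that size. Of 18 plasma cell and immunoglobulin genes, 11 were on the array by symbol and 7 were tested, 4 of them higher and 3 lower. The genes not on the array, most of the other listed antibody chain genes among them, were not measured. Groups did not overlap for 3 of the higher ones, Ighg1, Fkbp11 and Xbp1, against 8.35% of all genes in that direction. Fkbp11, a secretory pathway chaperone of plasma cells, had a difference of 0.91 ± 0.55, and Xbp1, the transcription factor of the secretory programme, 0.39. Jchain, the joining chain of secreted antibodies, had a difference of -0.19, Irf4 of -0.69 and the surface proteoglycan gene Sdc1 of -0.36. The plasma cell genes Prdm1, Derl3 and Tnfrsf17 were not detected on any of the 6 arrays. The summed intensity of the tested members without Ighg1 was 1990 to 2097 at day 11, against 1586 to 2104 at day 4. Of 8 tested B cell genes, 5 were higher and 3 lower, with a median of 0.11, and the groups overlapped for every one. Its sign turned with single arrays, to -0.24 if day 11 replicate 2 and -0.21 if day 4 replicate 1 was left out, and the highest value was 0.41, if day 11 replicate 3 was. Cd79b, a signalling chain of the B cell receptor, had a difference of 0.90 ± 0.47, and Pax5, the B lineage factor, was not detected. The part of such cells in the Ighg1 level was not tested.

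**Figure D1:**
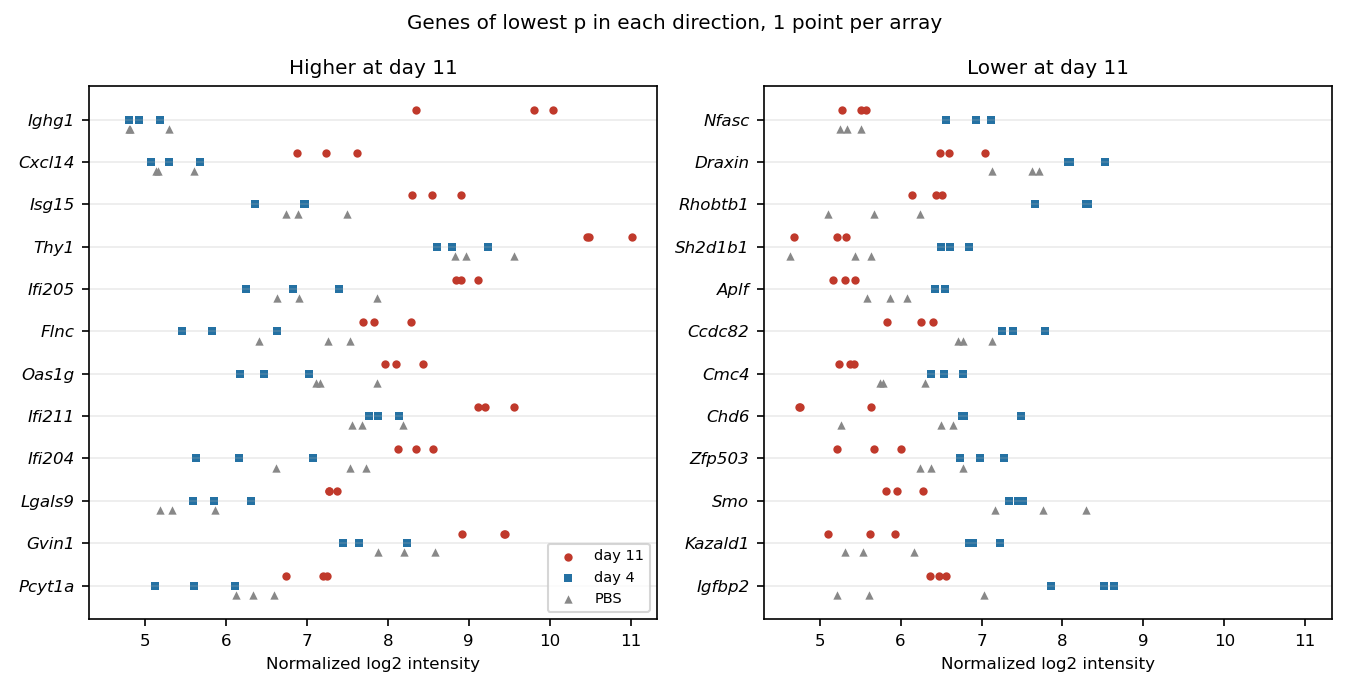
Normalized log2 intensity (x axis) of 12 genes per direction, chosen by smallest p, higher at day 11 (left) and lower at day 11 (right), with 1 point per array for day 11, day 4 and PBS. Ighg1 is the gene that passed the adjusted threshold, with day 11 arrays between 8.35 and 10.04 and every other array at 5.29 or less. In the right panel the highest day 11 point is Draxin at 7.04, and the other genes stay at 6.56 or less.

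After Ighg1, the genes with the lowest p in the higher direction included several that interferons induce, and none passed the adjusted threshold. Isg15, the ubiquitin-like modifier that interferons induce, had levels of 8.54, 8.30 and 8.91 on the day 11 arrays, against 6.36, 6.97 and 6.98 on the day 4 arrays. The groups lay 1.81 ± 0.31 apart with no overlap (limma, adjusted p = 0.335), and PBS arrays stood at 7.50, 6.89 and 6.75. Oas1g, of the family that senses double-stranded RNA and activates RNase L, stood at 8.10, 7.96 and 8.43 at day 11, against 6.47, 7.03 and 6.17 at day 4. PBS arrays for Oas1g, at 7.86, 7.16 and 7.12, lay between the 2 days. Its difference was 1.61 ± 0.32 (limma, adjusted p = 0.353), and a second probe gave 0.70. Bst2, the membrane tether that holds budding viruses, had levels of 8.10, 8.30 and 8.12 at day 11, against 7.0, 7.23 and 6.02 at day 4, a difference of 1.42 ± 0.38. None of these groups overlapped. Gvin1, a very large interferon-inducible GTPase, had levels of 8.92, 9.44 and 9.44 at day 11, against 7.45, 8.24 and 7.65 at day 4. Its PBS levels were 8.58, 8.21 and 7.88.

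The PYHIN family of interferon-inducible DNA-binding proteins divided in its differences. Ifi205 had levels of 8.91, 8.84 and 9.12 at day 11, against 6.83, 7.39 and 6.24 at day 4, and its difference of 2.13 ± 0.39 (limma, adjusted p = 0.353) came with 1.10 and 1.78 on its other probes. Ifi204 had levels of 8.56, 8.35 and 8.13 at day 11, against 7.08, 6.16 and 5.63 at day 4. Ifi211 had 9.56, 9.20 and 9.11 at day 11, against 7.87, 7.77 and 8.14 at day 4. PBS arrays stood at 7.73, 7.53 and 6.62 for Ifi204 and 7.69, 7.55 and 8.19 for Ifi211. For Ifi205 they stood at 6.63, 7.86 and 6.91. In all 3 genes every day 11 array lay above every day 4 array. Their relatives Ifi207, Mndal and Ifi213 had differences of 0.21, 0.08 and -0.08, with groups that overlapped. These genes are close copies of each other, so probes may pick up more than 1 of them. The family was listed after its values were seen.

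Across the whole interferon list, 21 of 27 tested genes were higher and 6 lower, and the median difference was 0.30. None passed the adjusted threshold in limma, and 7 had an unadjusted p under 0.05, all higher. Groups did not overlap for 8 genes, all higher, against 8.35% of all genes in that direction. These 8 were Isg15, Ifi204, Bst2, Oas2, Stat2, Zbp1, Oasl2 and Ifi27l2a. Oas2, of the same family as Oas1g, had levels of 6.50, 7.15 and 7.71 on the day 11 arrays, against 5.01, 6.10 and 4.83 on the day 4 arrays. Stat2, the subunit of the interferon-activated factor ISGF3, had a difference of 0.75 ± 0.30, while its partner Irf9 had 0.07, with 0.86 on a second probe, and the early responder Irf1 0.01. The immunoproteasome subunits Psmb8 and Psmb9, the GTPase Irgm1 and the deubiquitinase Usp18 had groups that overlapped, as had Irf9 and Irf1, and Ifit1, Irf7 and Oas1a were not detected. The median over the list was 0.40, 0.25 and 0.76 on the day 11 arrays relative to the day 4 mean, against 0.09, 0.04 and -0.01 on the day 4 arrays. Leaving out any 1 array of either day gave medians from 0.26 to 0.45, with 18 to 22 genes higher.

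The promoters of 4 genes described above show the element through which ISGF3 acts, the interferon-stimulated response element (ISRE). Isg15 and Bst2 stand in the interferon list, and Oas1g and Ifi205 do not. Each is 300 bases, from 250 before to 50 after the start of the gene, taken from RefSeq on the GRCm38.p6 build and written 5′ to 3′ on the strand of the gene. Capitals mark matches on either strand to GAAA, any 2 bases and GAAA again, and matches that overlap run together.
Isg15, chr4:156200769-156201068, minus strand: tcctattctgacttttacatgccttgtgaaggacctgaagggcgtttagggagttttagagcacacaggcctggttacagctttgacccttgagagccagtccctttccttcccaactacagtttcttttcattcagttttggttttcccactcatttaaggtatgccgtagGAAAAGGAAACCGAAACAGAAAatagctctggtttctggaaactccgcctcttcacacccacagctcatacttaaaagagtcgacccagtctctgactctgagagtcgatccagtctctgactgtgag
Oas1g, chr5:120887564-120887863, minus strand: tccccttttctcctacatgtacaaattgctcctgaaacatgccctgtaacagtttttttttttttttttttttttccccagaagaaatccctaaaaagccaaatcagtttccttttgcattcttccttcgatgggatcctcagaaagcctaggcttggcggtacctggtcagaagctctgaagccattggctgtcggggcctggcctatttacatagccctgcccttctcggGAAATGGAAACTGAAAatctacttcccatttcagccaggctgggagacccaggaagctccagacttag
Ifi205, chr1:174031706-174032005, minus strand: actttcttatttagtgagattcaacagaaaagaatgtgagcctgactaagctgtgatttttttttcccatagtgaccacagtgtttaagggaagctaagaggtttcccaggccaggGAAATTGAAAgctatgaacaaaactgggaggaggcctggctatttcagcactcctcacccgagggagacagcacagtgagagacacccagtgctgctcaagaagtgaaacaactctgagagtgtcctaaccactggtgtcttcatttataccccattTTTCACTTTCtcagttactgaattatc
Bst2, chr8:71537423-71537722, minus strand: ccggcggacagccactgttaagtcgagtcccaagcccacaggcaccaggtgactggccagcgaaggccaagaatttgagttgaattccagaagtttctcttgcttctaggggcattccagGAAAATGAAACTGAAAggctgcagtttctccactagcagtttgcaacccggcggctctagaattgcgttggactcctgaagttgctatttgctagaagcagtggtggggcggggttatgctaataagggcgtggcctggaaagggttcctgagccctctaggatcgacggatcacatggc
Isg15 holds 3 matches that overlap in 1 run, at 78, 72 and 66 bases before its start. Oas1g and Bst2 each hold 2 overlapping matches, and Ifi205 holds 1 match before and 1 after its start. In the RefSeq windows, 60.0% of the 20 interferon genes that could be matched held the element, against 3.86% of the 6374 tested genes matched and 3.99% of all 27025 genes with a promoter entry. The list holds genes known to be induced by interferon, so this share describes the list and not the days. By difference between the days, it was in 3 of the 4 matched members whose groups did not overlap, with none in Oasl2. It was in 9 of the 16 whose groups overlapped. A match describes the letters and shows no binding.

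Inflammatory cytokines and chemokines had a median near 0, with single members from -0.46 to 2.10. Groups did not overlap for 1 higher gene, Il1b, and 1 lower gene. That is about the share among all genes, 8.35% higher and 7.7% lower. Of 14 tested cytokines and chemokines, 8 were higher and 6 lower, with a median of 0.02, which lay between -0.04 and 0.09 when any 1 array of either day was left out. Il6 had levels of 10.49, 10.46 and 10.74 at day 11, against 10.88, 10.59 and 10.52 at day 4, and Ccl2, a monocyte attractant, had a difference of -0.35 ± 0.27. Il1b, the inflammasome-processed cytokine made mainly by myeloid cells, had levels of 7.96, 8.16 and 8.26 at day 11, against 6.32, 6.98 and 4.76 at day 4, a difference of 2.10 ± 0.51 (limma, adjusted p = 0.425). Its PBS levels of 7.61, 8.31 and 7.39 were close to those of day 11, so the day 4 arrays were the low ones. Ptx3, a secreted pattern recognition protein, had levels of 10.27, 9.75 and 9.73 at day 11, against 7.38, 8.48 and 8.28 at day 4 and 5.51, 7.57 and 7.72 in PBS. Cxcl14, a chemokine that stromal cells secrete, was detected on all 3 day 11 arrays at 7.62, 6.87 and 7.24 and on no day 4 array. It met the filter only through the day 11 arrays. It was at least 2.79-fold higher at day 11, with a difference of 1.90 ± 0.30 (limma, adjusted p = 0.299). Lgals9, the galectin that binds Tim-3 on T cells, had levels of 7.27, 7.28 and 7.37 at day 11, against 5.85, 6.30 and 5.59 at day 4.

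The homeostatic chemokines of the T zone were lower at day 11, by small steps that did not pass the test. Ccl19 had levels of 11.79, 11.60 and 11.95 at day 11, against 12.27, 12.46 and 12.15 at day 4, a difference of -0.51 ± 0.27 (limma, adjusted p = 0.759). Ccl21a had levels of 12.36, 11.85 and 12.18 at day 11, against 12.77, 12.47 and 12.40 at day 4. Cxcl12, the ligand of Cxcr4, had levels of 11.80, 11.73 and 11.55 at day 11, against 11.96, 11.88 and 11.99 at day 4. In these 3 genes and in Il7 every day 11 array lay below every day 4 array. Il7 had levels of 8.58, 8.77 and 8.33 at day 11, against 9.21, 9.02 and 9.40 at day 4, a difference of -0.65 ± 0.30 with -1.32 on a second probe. PBS arrays spanned both days for Ccl19, at 11.63 to 12.30, and for Il7, at 8.68 to 9.56. Cxcl13, the B zone chemokine, had a difference of 0.04 ± 0.27, and its sign turned to -0.01 when arrays were scaled to the 75th percentile and to -0.10 without day 4 replicate 1. Over the list of zone chemokines and survival factors, 5 of 13 tested genes were higher and 8 lower.

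Genes of CD34+ adventitial fibroblasts and genes of T zone reticular cells had medians on opposite sides of 0. Thy1, a membrane-anchored protein found on stromal fibroblasts and on T cells, had levels of 10.46, 10.49 and 11.01 at day 11, against 9.24, 8.80 and 8.60 at day 4. Its difference was 1.77 ± 0.31, with an adjusted p of 0.335 in limma and of 0.0147 with a variance prior that follows intensity. Ly6c1, a surface protein of CD34+ fibroblasts and endothelium, had levels of 9.50, 9.58 and 9.77 at day 11, against 8.80, 8.12 and 8.24 at day 4. Cd248, also called endosialin, had levels of 11.07, 10.87 and 11.35 at day 11, against 10.53, 10.10 and 9.78 at day 4. For all 3 genes the lowest day 11 array exceeded the highest day 4 array. Cd34 itself had levels of 7.95, 8.73 and 9.05 at day 11, against 7.87, 7.63 and 7.96 at day 4, and its groups overlapped. Of 23 tested adventitial genes, 22 were higher, with a median of 0.79. Groups did not overlap for 12 of them, all higher, against 8.35% of all genes in that direction. None passed the adjusted threshold in limma and 9 had an unadjusted p under 0.05. Beside Cd34, groups also overlapped for Pi16 (0.80 ± 0.62), Dpp4 (0.79 ± 0.50) and Clec3b (0.30 ± 0.24). The same held for Cd55, Mfap5, Sema3c and Has1.

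Among 15 T zone reticular genes, 13 were lower and 2 higher, with a median of -0.25. Groups did not overlap for 7, all lower, against 7.7% of all genes in that direction. Beside the chemokines, these included Grem1, a BMP antagonist of T zone reticular cells, at 9.47, 9.36 and 9.37 at day 11, against 9.95, 10.04 and 9.75 at day 4. Vcam1 and Icam1, adhesion molecules of activated stroma, had differences of -0.18 and -0.21, also without overlap, but the 3 further Vcam1 probes gave -0.07, 0.04 and 0.26. Ch25h, the oxysterol-producing hydroxylase, had -0.39 ± 0.39 with overlap, and PBS arrays for Grem1 were lowest of all at 9.10 to 9.25. Both lists were put together after values were seen, 4 adventitial and 6 T zone genes also stand in the FRC identity list, and their counts describe the arrays. Leaving out any 1 array of either day gave medians of 0.64 to 0.91 for the adventitial genes and -0.31 to -0.21 for the T zone genes. The 25 FRC identity genes as a whole had 13 higher and 12 lower, with a median of 0.07, and single arrays moved that median to between -0.04, if day 11 replicate 3 was left out, and 0.15, if day 11 replicate 2 was.

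**Figure D2:**
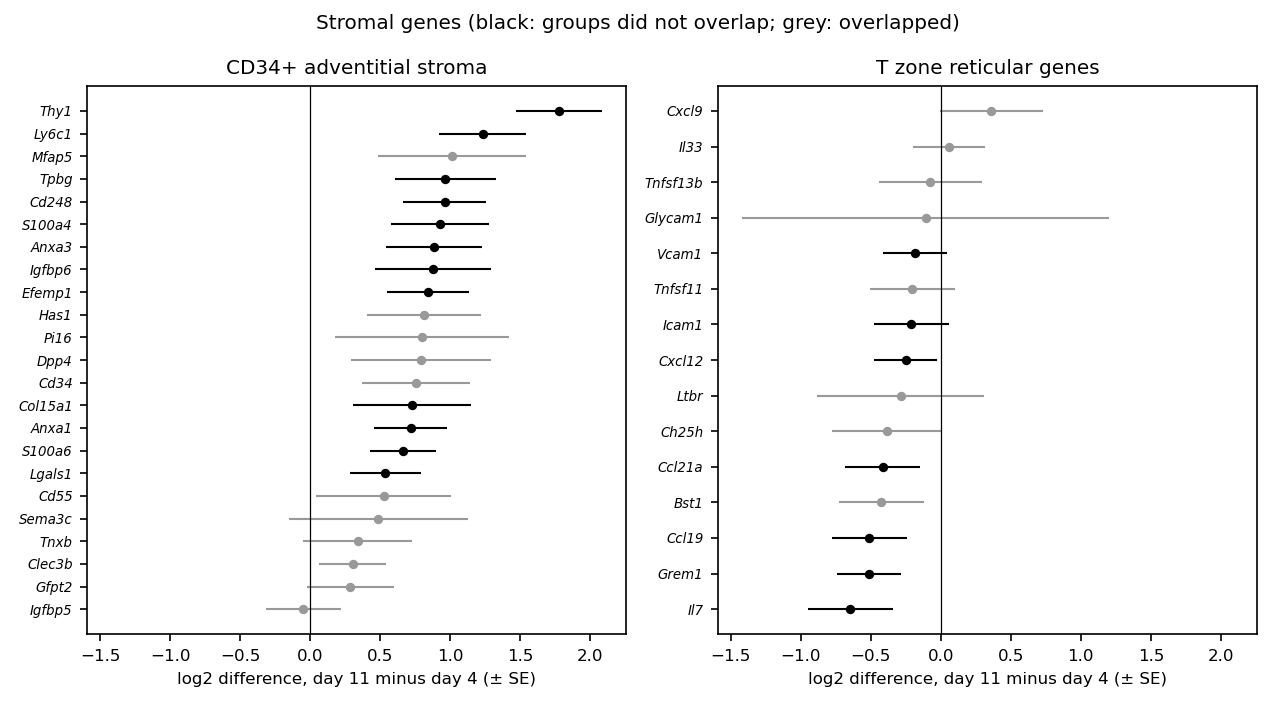
Difference of day 11 minus day 4 (x axis, log2, bars ± SE from limma with 3 arrays per group) for the tested CD34+ adventitial genes (left) and T zone reticular genes (right). Black points mark genes whose groups did not overlap, 12 of 23 on the left, all higher at day 11, and 7 of 15 on the right, all lower.

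Matrix genes were more often higher than lower at day 11, by small differences that depended on single arrays. Of 15 tested collagen chains, 13 were higher and 2 lower, with a median of 0.20, which was 0.04 without day 11 replicate 3, and the number higher ran from 10 to 14 when 1 array of either day was left out. Col3a1, a main fibrillar chain of reticular fibres, had levels of 11.94, 12.22 and 12.44 at day 11, against 11.85, 11.76 and 11.68 at day 4, while Col1a1 had a difference of -0.06 ± 0.25. Col8a1 ran the other way, at 4.94, 5.69 and 5.26 and not detected at day 11, against 9.51, 6.13 and 6.21 at day 4, where replicate 1 stood alone. Of 33 other matrix genes, 23 were higher and 10 lower, with a median of 0.22, and this median was 0.02 if day 4 replicate 2, 0.10 if day 11 replicate 3 and 0.38 if day 4 replicate 1 was left out. Vcan, the large chondroitin sulfate proteoglycan versican, had levels of 8.32, 8.87 and 8.51 at day 11, against 7.19, 6.94 and 7.25 at day 4. Its difference was 1.44 ± 0.35 (limma, adjusted p = 0.434), beside 1.10, 1.26 and 1.88 on the further probes. Efemp1, a fibulin of elastic tissue, had 0.84 ± 0.29 without overlap. Fmod, a collagen-binding proteoglycan, had -0.93 ± 0.33, and Tnc, the matrix protein tenascin C of remodelling tissue, had -0.50 ± 0.28, both with day 11 below day 4 on every array, though 1 of 4 further Tnc probes gave 0.31.

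Growth factor genes of the TGF-beta and BMP pathway gave 9 higher and 11 lower among 20 tested, with a median of -0.04, and leaving out day 11 replicate 3 made it 0.03. Groups did not overlap for 3 genes, all lower, against 7.7% of all genes in that direction. They were Bmp4, Tgfbi and Grem1. Bmp4, the BMP ligand, had levels of 6.75, 6.64 and 6.68 at day 11, against 8.04, 7.51 and 8.02 at day 4. Tgfbi, a TGF-beta-induced adhesion protein, had levels of 10.22, 10.49 and 10.31 at day 11, against 10.95, 10.94 and 11.02 at day 4, with -0.63 ± 0.25 on this probe and -1.13 on a second. Contractile genes also sat slightly below 0, with 8 higher and 16 lower of 24 tested and a median of -0.11. Acta2, smooth muscle actin, had a difference of -0.29 ± 0.30.

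Cell cycle genes were mostly higher at day 11, and none passed the adjusted threshold in limma. Of 19 tested mitosis genes, 16 were higher and 3 lower, with a median of 0.44. Groups did not overlap for 6 of the higher and 1 of the lower, against 8.35% and 7.7% of all genes in those directions. An unadjusted p under 0.05 was reached by 3 higher and 1 lower, against 3.5% and 3.53% of all genes. Aurka, the spindle pole kinase, had levels of 6.70, 7.40 and 7.11 at day 11, against 4.90, 6.45 and 5.20 at day 4, a difference of 1.56 ± 0.44 (limma, adjusted p = 0.486). Birc5, the survivin subunit of the chromosomal passenger complex, had 7.76, 8.46 and 7.87 at day 11, against 6.19, 7.48 and 6.01 at day 4, a difference of 1.47, with 0.72 and 0.81 on 2 further probes. Plk1, the polo-like kinase of mitotic entry, had 8.26, 8.80 and 8.67 at day 11, against 7.66, 7.50 and 6.77 at day 4. For these 3 genes the groups did not overlap, and day 4 replicate 2 was high among the day 4 arrays for Aurka and Birc5. Cdk1, the kinase that drives entry into mitosis, ran against them, at 6.99, 6.68 and 6.26 at day 11, against 7.32, 7.44 and 7.65 at day 4.

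Of 24 tested genes of DNA replication and nucleotide synthesis, 18 were higher and 6 lower, with a median of 0.34, which was 0.56 without day 11 replicate 1 and 0.23 without day 11 replicate 2. Rrm1, the large subunit of ribonucleotide reductase, had levels of 8.69, 9.06 and 9.02 at day 11, against 7.52, 8.46 and 7.78 at day 4, a difference of 1.0, but a second probe gave 0.23. Mcm5, a subunit of the replicative helicase, had 9.36, 9.62 and 9.41 at day 11, against 8.13, 8.33 and 8.34 at day 4, while Mcm2 and Mcm3 of the same hexamer had -0.38 and -0.18. The sliding clamp Pcna had -0.05. Histone genes that are transcribed in S phase and packaged into new chromatin were higher more evenly. Of 55 such genes, 42 were tested, of which 40 were higher and 2 lower, with a median of 0.59. Groups did not overlap for 24 of the higher, against 8.35% of all genes in that direction. H2ac7, a core histone gene, had levels of 9.88, 10.01 and 9.98 at day 11, against 8.67, 9.20 and 8.88 at day 4, a difference of 1.04 ± 0.29 (limma, adjusted p = 0.486), with 0.56 on a second probe. By class, 12 of 13 H2A, 9 of 9 H2B, 7 of 7 H3 and 10 of 10 H4 genes were higher, with medians of 0.46, 0.69, 0.68 and 0.60, and so were 2 of 3 linker histone H1 genes. They lie in clusters, 35 on chromosome 13 and 7 on chromosome 3. The copies are nearly identical, so their probes may share transcripts and the count is not one of independent genes. The list was drawn by symbol after histones were seen among the higher genes, and its median on single arrays was 0.51, 0.65 and 0.63 at day 11 relative to the day 4 mean, against 0.06, 0.18 and -0.24 at day 4.

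Promoters of many mitosis genes carry a shared pair of elements, the cell cycle genes homology region (CHR) and the CCAAT box bound by NF-Y. Windows, build and strand are as for the interferon genes, and capitals mark TTTGAA and CCAAT on either strand.
Aurka, chr2:172370521-172370820, minus strand: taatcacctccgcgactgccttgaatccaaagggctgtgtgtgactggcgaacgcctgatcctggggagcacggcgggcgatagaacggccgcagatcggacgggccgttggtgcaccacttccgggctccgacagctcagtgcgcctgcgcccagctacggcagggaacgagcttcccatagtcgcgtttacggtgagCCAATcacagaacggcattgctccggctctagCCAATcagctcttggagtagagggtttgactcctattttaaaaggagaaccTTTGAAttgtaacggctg
Plk1, chr7:122159185-122159484, plus strand: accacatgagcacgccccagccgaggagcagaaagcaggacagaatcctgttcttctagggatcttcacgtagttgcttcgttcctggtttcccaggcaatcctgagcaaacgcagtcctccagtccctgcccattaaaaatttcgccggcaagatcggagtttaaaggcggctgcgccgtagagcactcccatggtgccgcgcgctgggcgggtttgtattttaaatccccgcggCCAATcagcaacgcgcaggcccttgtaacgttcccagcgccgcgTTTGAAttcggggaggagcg
Cdca8, chr4:124936868-124937167, minus strand: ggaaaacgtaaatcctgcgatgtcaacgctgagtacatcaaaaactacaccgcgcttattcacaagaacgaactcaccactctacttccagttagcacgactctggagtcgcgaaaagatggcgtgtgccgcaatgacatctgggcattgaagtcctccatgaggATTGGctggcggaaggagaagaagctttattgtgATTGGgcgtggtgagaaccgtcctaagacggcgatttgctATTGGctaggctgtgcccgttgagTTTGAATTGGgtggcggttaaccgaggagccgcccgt
In Aurka and Plk1 the CHR lies just after the start of the gene and the CCAAT box before it, and in Cdca8 1 CCAAT box on the other strand runs on from the CHR. Among 16 matched mitosis genes, TTTGAA was found in 87.5% and CCAAT in 93.8%, against 14.1% and 42.8% of the 6374 tested genes matched and 20.2% and 41.1% of all genes with a promoter entry. Cdk1, whose difference had the other sign, holds both elements as well, while the window of Birc5 held neither and that of Cks2 held CCAAT only.

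**Figure D3:**
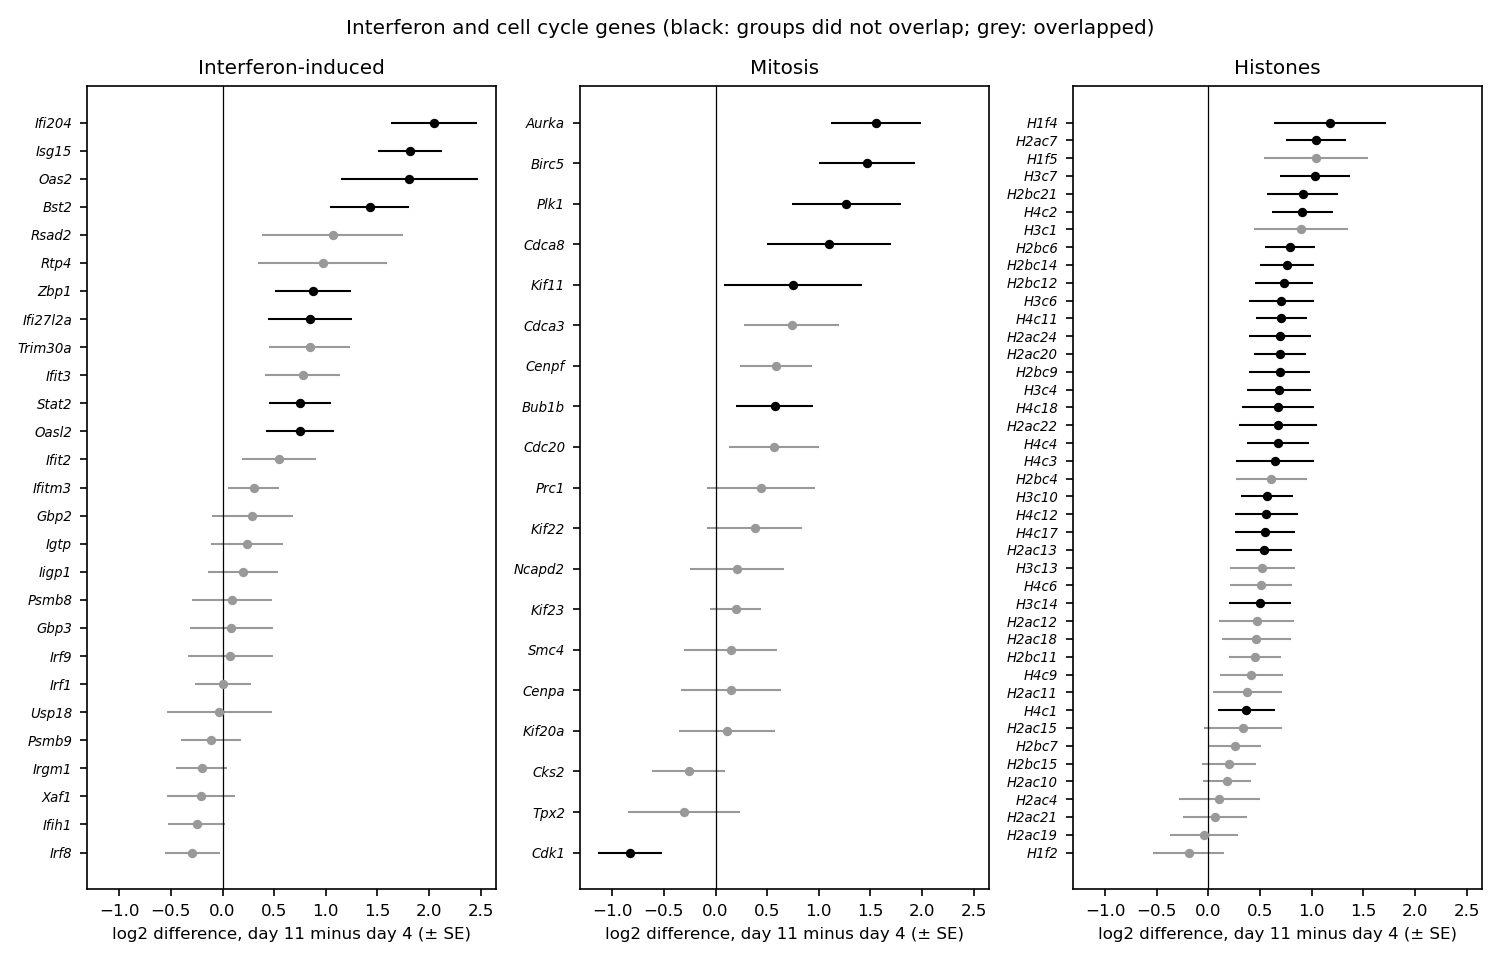
Difference of day 11 minus day 4 (x axis, log2, bars ± SE from limma with 3 arrays per group) for tested interferon-induced genes (left), mitosis genes (middle) and replication-dependent histone genes (right). Black points mark genes whose groups did not overlap, 8 of 27 interferon genes, 7 of 19 mitosis genes and 24 of 42 histone genes. Among all genes, 8.35% were higher and 7.7% lower without overlap.

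Housekeeping groups showed smaller leanings. Of 58 respiratory chain genes, 44 were higher, with a median of 0.16 (0.09 without day 4 replicate 3, 0.27 without day 4 replicate 2), and of 49 cytosolic ribosomal protein genes 41 were higher, with a median of 0.12 (0.04 and 0.19 without the same arrays). Proteasome subunits gave 24 higher and 5 lower of 29, with a median of 0.28, or 0.13 if day 4 replicate 1 and 0.14 if day 4 replicate 3 was left out. Psmb3, a beta ring subunit, had the largest difference among them at 1.01. Of 26 secretory pathway genes, 20 were higher, with a median of 0.11 (0.19 if day 4 replicate 2 or day 11 replicate 3 was left out). Glycolysis and hypoxia genes (median -0.03 over 23 genes), cholesterol and lipid synthesis (-0.08 over 14), peptide loading genes of MHC class I (0.09 over 16) and complement (0.00 over 9) lay near the median of all genes, and leaving out 1 array of either day moved them to between -0.14 and 0.22. Among Atf4 targets Asns, asparagine synthetase, had levels of 7.35, 7.49 and 7.99 at day 11, against 5.83, 6.30 and 5.80 at day 4, while the median over 15 was -0.03, or 0.14 if day 4 replicate 2 and -0.15 if day 4 replicate 3 was left out. Matrix proteases and crosslinking enzymes had 18 higher and 6 lower of 24, with a median of 0.17 that shrank to 0.06 if day 4 replicate 3 and 0.08 if day 11 replicate 3 was left out, with Mmp19 at 1.18 ± 0.50 and Mmp9 at -0.80 ± 0.43.

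Immediate early and heat shock genes, which also respond to handling of tissue, were more often lower at day 11. Of 34 tested, 26 were lower and 8 higher. Groups did not overlap for 5 of the lower and 2 of the higher, against 7.7% and 8.35% of all genes in those directions. The median was -0.22. That value ran from -0.34 to -0.09 when single arrays were left out, smallest in size without day 11 replicate 3 (-0.09) or day 4 replicate 1 (-0.11) and largest if day 4 replicate 3 was dropped. Ier5, a growth-factor-inducible regulator, had levels of 9.09, 9.38 and 9.33 at day 11, against 10.10, 10.17 and 10.35 at day 4, and Junb, an AP-1 subunit, had -0.58 without overlap. Fos, Egr1 and Dusp1, widely used marks of tissue digestion, had -0.26, -0.06 and -0.01 with overlap. Cebpb, a transcription factor of stress and inflammation, had 8.32, 8.62 and 8.92 at day 11, against 9.60, 9.52 and 9.56 at day 4, a difference of -0.94 ± 0.25 (limma, adjusted p = 0.458).

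**Figure D4:**
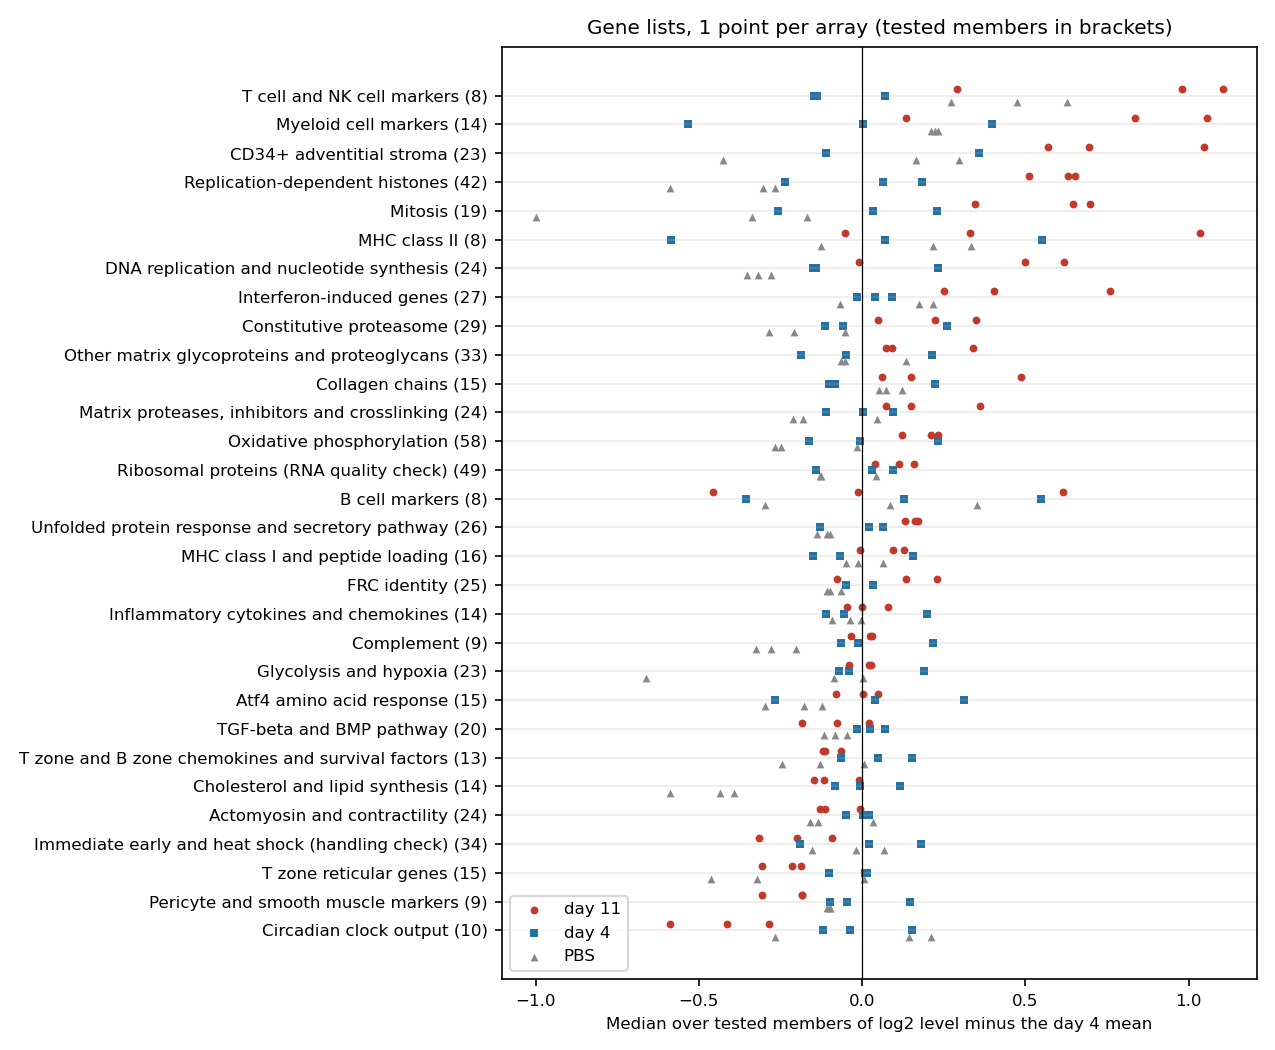
Median over the tested members of each gene list of the log2 level minus the day 4 mean (x axis), with 1 point per array for day 11, day 4 and PBS; lists with at least 8 tested members are shown. All day 11 points of the adventitial, histone, mitosis, interferon, T cell and NK cell, and secretory pathway lists lie right of all day 4 points. Those of the T zone reticular, circadian and pericyte lists lie left of them. The adventitial, histone, T zone reticular and circadian lists were put together after values were seen.

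Transcripts of other cell types were measured beside these groups. Of 29 myeloid genes, 14 were tested and 13 of them were higher at day 11, with a median of 0.81. Groups did not overlap for 4, all higher, against 8.35% of all genes in that direction. Without day 11 replicate 2 the median was 0.49. Their summed intensity was 8039 to 12048 at day 11, against 4938 to 8138 at day 4 and 7287 to 9089 in PBS. Tyrobp, the adaptor of activating myeloid receptors, had levels of 9.53, 9.73 and 8.86 at day 11, against 8.21, 8.23 and 7.46 at day 4, and 8.25, 9.39 and 8.77 in PBS. Lyz2, the lysozyme of macrophages and neutrophils, had a difference of 1.06 and S100a9, a neutrophil calcium-binding protein, of 1.49. The defining receptors Itgam, Csf1r, Fcgr1 and Adgre1 were not detected on any of the 6 arrays. Of 8 MHC class II genes, all 8 were higher with a median of 0.36 and overlapping groups, led by Cd74 at 10.51, 10.46 and 9.62 at day 11, against 8.75, 10.02 and 9.56 at day 4, and by 0.24 and 0.58 on 2 further probes. Without day 11 replicate 2, 5 of the 8 were higher and the median was 0.16, and it was 0.75 if day 11 replicate 3, 0.63 if day 4 replicate 2 and 0.21 if day 4 replicate 1 was left out. Il1b, Isg15 and the MHC class II genes are also expressed in myeloid cells, and the part of those cells in these differences was not tested.

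Of 21 T cell and NK cell genes, 8 were tested, 6 higher and 2 lower, with a median of 0.83. The 3 without overlap were Thy1, Cd3e and Cd8b1, all higher, against 8.35% of all genes in that direction, and 3 genes had an unadjusted p under 0.05 and 0 passed the adjusted threshold in limma. Cd3e, a chain of the T cell receptor complex, had levels of 7.06, 7.44 and 6.70 at day 11, against 6.27, 5.81 and 5.26 at day 4, and 7.32, 7.46 and 7.42 in PBS, a difference of 1.29, with 0.39 on a second probe. Without Thy1, which FRCs also express, the summed intensity of the other 7 was 2220 to 3087 at day 11, against 2129 to 4298 at day 4, so that the sums overlapped. Zap70, Cd5 and Nkg7 were not detected. Of 22 vascular endothelial genes 7 were tested, with 4 higher and 3 lower, and of 15 lymphatic genes 7, with 5 higher and 2 lower. The vascular genes summed to 1693 to 2645 at day 11, against 1181 to 1683 at day 4, and without the 4 that also stand in stromal lists to 332 to 551 at day 11, against 379 to 593 at day 4. The lymphatic genes had a median of 0.46, with Ptx3, Pdpn and Fgl2 higher and Ccl21a lower without overlap. Their summed intensity was 7460 to 9202 at day 11, against 8428 to 9555 at day 4. Without Pdpn and Ccl21a, which FRCs express, the other 5 summed to 2349 to 2665 at day 11, against 1473 to 2082 at day 4. They summed to 829 to 2237 in PBS, and day 11 lay above day 4. Ptx3, with a difference of 1.87, is 1 of these 5, and the sums were not taken without it. The defining vascular genes Cdh5, Kdr, Flt1, Emcn and Vwf and the lymphatic genes Lyve1 and Reln were not detected. Pericyte and smooth muscle genes were lower in 8 of 9. Of the melanocyte genes Mlana, Tyr, Tyrp1, Dct and Sox10 none was detected on any array of either day, and 2 of 10, Mitf and Gpnmb, were tested, with differences of -0.33 and -0.32. The fat cell list had 3 tested members, with Fabp4 at 0.24 ± 0.61, and the red cell and platelet list had 1, Pf4 at -0.32.

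The genes with the lowest p in the lower direction were dim, and none passed. Nfasc, the adhesion molecule neurofascin, had levels of 5.28, 5.51 and 5.57 at day 11, against 6.93, 6.56 and 7.12 at day 4, with -1.42 ± 0.25 (limma, adjusted p = 0.353). It was at least 1.32-fold lower at day 11, since no day 11 array detected it. Smo, the Hedgehog signal transducer, had 5.82, 5.95 and 6.27 at day 11, against 7.51, 7.34 and 7.46 at day 4, at least 1.96-fold lower, but a second probe of it had a difference of 0.25. Draxin, Rhobtb1 and Igfbp2 were each detected on 1 day 11 array. Draxin, an axon guidance protein, had 6.48, 7.04 and 6.60 at day 11, against 8.07, 8.52 and 8.10 at day 4, and Rhobtb1 had 6.51, 6.44 and 6.14 at day 11, against 8.31, 8.30 and 7.65 at day 4. Igfbp2, a binding protein of insulin-like growth factors, had 6.48, 6.56 and 6.36 at day 11, against 7.86, 8.63 and 8.51 at day 4 and 5.61, 7.03 and 5.21 in PBS. Among the 12 named lower genes, the day 4 arrays also stood above every PBS array for all but Smo and Zfp503. Chd6, a chromatin remodeller, Zfp503, Kazald1, the NK cell adaptor Sh2d1b1, Cmc4 and the repair factor Aplf were detected on no day 11 array. They were at least 1.46-fold lower at day 11 for Chd6, 1.44-fold for Zfp503 and for Kazald1, 1.14-fold for Sh2d1b1 and 1.07-fold for Cmc4, and Aplf allowed no bound. Ccdc82, detected on 1 day 11 array, had a difference of -1.31.

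**Figure D5:**
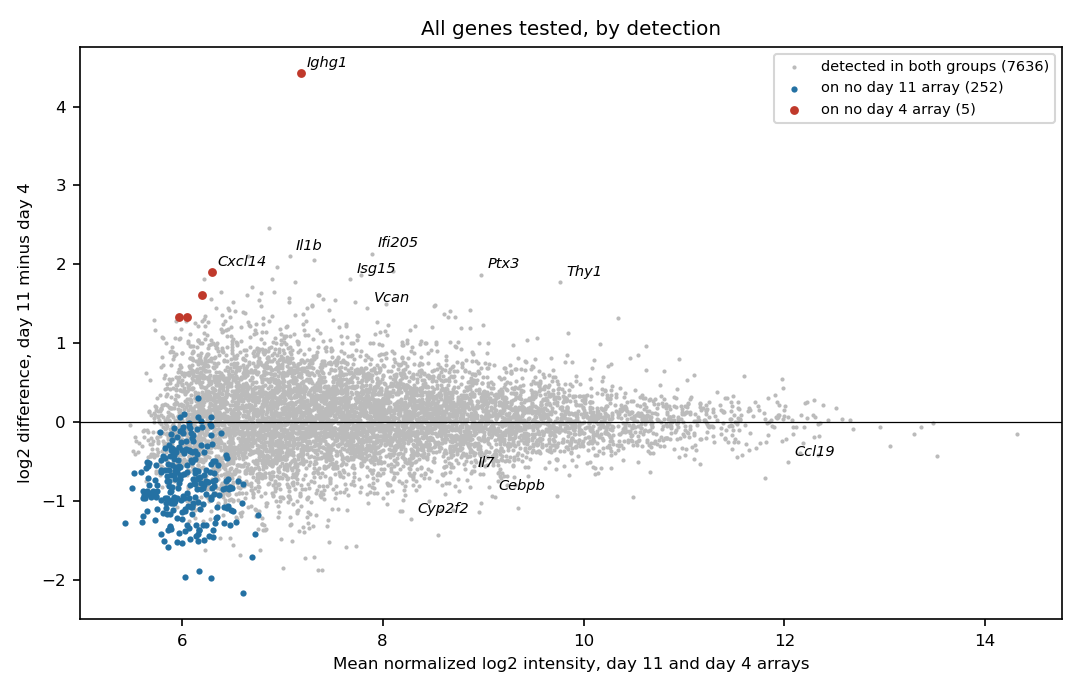
Difference of day 11 minus day 4 (y axis, log2) against the mean normalized log2 intensity of the 6 arrays (x axis) for all 7893 genes. Red points, 5 genes, were detected on no day 4 array, and blue points, 252 genes, on no day 11 array. The blue points lie at the dim end, 246 of them below 0. The filter let blue genes in only through day 4 arrays and red genes only through day 11 arrays, so it favoured their signs.

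Detection differed between the directions. Of the 276 genes that were higher at an unadjusted p under 0.05, 182 were detected on all 6 arrays and 5 on no day 4 array. Of the 279 that were lower, 72 were detected on all 6 arrays and 99 on no day 11 array. The day 11 arrays had the higher detection limits. Genes on no day 11 array met the filter only through the day 4 arrays, so it favoured a lower direction for them. The 5 on no day 4 array, Ighg1 and Cxcl14 among them, met it only through the day 11 arrays. Of the 12 named genes in each direction, 6 of the higher and 0 of the lower were detected on all 6 arrays. Among them, 2 higher genes were on no day 4 array and 8 lower genes on no day 11 array. The filter sets a like edge: 1982 probes met it with exactly 3 arrays at a median level of 6.06, and 2530 missed it with 2 arrays at 5.73. Among 3060 genes detected on all 6 arrays with a mean of at least 8, an unadjusted p under 0.05 was reached by 84 in the higher and 47 in the lower direction.

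Of those bright genes, 6 not described above were picked after their values were seen. Spon2, a secreted matrix protein that also binds microbes, had levels of 10.72, 10.91 and 11.40 at day 11, against 9.92, 10.08 and 9.05 at day 4. Plac8, a cysteine-rich protein of immune and other cells, had 9.38, 9.31 and 9.44 at day 11, against 8.40, 8.75 and 7.40 at day 4, and Rgs1, a brake on chemokine receptor signalling in leukocytes, had 9.47, 9.69 and 8.99 at day 11, against 7.94, 8.56 and 7.66 at day 4. In all 3 genes the day 11 arrays were the higher ones, without overlap. In the lower direction, Cyp2f2, a cytochrome P450, had 8.18, 7.44 and 7.36 at day 11, against 8.90, 8.87 and 8.91 at day 4 and 10.25, 9.78 and 9.41 in PBS. Camk2n1, an inhibitor of the calcium-dependent kinase CaMKII, had 7.45, 7.25 and 8.14 at day 11, against 8.63, 8.79 and 8.78 at day 4. Tenm3, a teneurin adhesion protein, had 8.03, 8.01 and 7.84 at day 11, against 9.04, 9.17 and 8.68 at day 4. Every day 11 array of these 3 genes lay below every day 4 array.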

How the data were processed

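The deposited table of raw values held, per the file headers, an intensity on a linear scale and a detection p-value for each bead probe and array, with no normalization between arrays. The authors' processed values were deposited as intensities too, and per the submitters' processing notes lumi was used, with steps otherwise not given in the sources used here. From the raw intensities, neqc of limma 3.58.1 (R 4.3.3) corrected background from the detection p-values, added an offset of 16, quantile-normalized the 9 arrays and took log2; these log2 values were computed here from the deposited intensities. Probes met a detection p under 0.01 on at least 3 of the 6 day 11 and day 4 arrays. Symbols came from the platform annotation, updated through RefSeq (GRCm38.p6), and the brightest probe stood for a gene. One fit of 3 group means (lmFit, eBayes) used the 9 arrays, leaving 6 residual degrees of freedom, and p-values were adjusted by Benjamini-Hochberg over the 14287 probes, with a threshold of 0.05. Fold bounds take the dim group at the lowest detected signal of each array or the probe's own signal if higher. Named genes were the 12 with the lowest p per direction and no overlap, leaving out locus identifiers and genes with another probe at an unadjusted p under 0.05 in the opposite direction, the 2 lowest p in each list, and a preset of FRC genes. The members, the lists and the rule were chosen with earlier results of these data known, and genes outside that rule were chosen after their values were seen. The series design text gives 1 animal per array, and the number of arrays, 3 per group, limits precision. The procedure was checked on simulated data. Slide was not given, so no slide block could be run. RefSeq promoter windows were found for 6374 of the genes.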

Additional observations from a re-analysis of the deposited data

How the results depend on the processing

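The count of genes past the threshold stayed at 1 under 12 of 22 alternatives. It was 0 with no filter, with the replicate block, at an adjusted p of 0.01 and among genes detected on all 6 arrays, the last chosen after seeing the data and leaving Ighg1 out of the genes tested. It was 2 with a variance prior that follows intensity, which added Thy1. Leaving out 1 array gave 1 if it was day 11 replicate 3 or any PBS array, and 0 if it was any other array. Ighg1 itself had an adjusted p in limma of 0.136 with no filter and 0.0780 with the replicate block, each at a difference of 4.43. With no filter, limma also estimated its variance prior from all 45281 probes, undetected ones included. Leaving out 1 array gave differences of 4.15 to 5.0. Of its 21 alternatives, 13 kept the call, with differences from 2.78 to 5.0. Replicate numbers did not pair the samples: same-numbered day 11 and day 4 arrays deviated with correlations of -0.04, -0.01 and -0.01. At an adjusted p of 0.01, Ighg1 (difference 4.43) did not pass.

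Signs turned for 7 genes, among them Masp1, whose main difference was 0.63, and Fabp4, at 0.24. Scaling to the 75th percentile gave Cxcl13 -0.015 and Pparg 0.18. Leaving out 1 array gave -0.23 to 0.028 for Pdgfra, -0.10 to 0.14 for Cxcl13, -0.18 to 0.012 for Il6, -0.14 to 0.065 for Col1a1, -0.12 to 0.85 for Fabp4, -0.44 to 0.10 for Pparg and -0.023 to 1.35 for Masp1. The causes were not tested.

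Medians of some lists moved by more than the spread between arrays. The FRC identity median was 0.19 with the filter on all 3 arrays of a day and among genes detected on all 6 arrays, and -0.059 with the mean of a gene's probes. Cholesterol and lipid synthesis gave 0.053 among genes detected on all 6 arrays. With no filter, which adds undetected genes, the myeloid list gave 0.32, the T cell and NK cell list 0.19 and the pericyte list -0.12. The T cell and NK cell list gave 0.49 with no background correction, the pericyte list -0.13 with the mean of a gene's probes, and the T zone reticular list -0.19 with the authors' processed values. Leaving out 1 array gave -0.19 to 0.0078 for zone chemokines and survival factors, 0.0018 to 0.22 for MHC class I, 0.021 to 0.38 for other matrix genes, 0.11 to 0.19 for the secretory pathway, -0.29 to -0.16 for pericyte genes and -0.59 to -0.31 for circadian genes. The medians of the interferon, adventitial, mitosis and histone lists moved by less than the spread between arrays under all 20 alternatives run on them. The same held for many other lists, among them the B cell list, whose median ran from -0.24 to 0.41. So it does not set the named lists apart. Dim genes are limited by the higher detection level of the day 11 arrays.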

Other observations

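Genes of the circadian clock were lower at day 11 in 9 of 10 tested members, 4 of them without overlap between the groups, against 7.7% of all genes in that direction, and 3 had an unadjusted p under 0.05. The list was put together after these genes were seen, and none passed the adjusted threshold in limma. Dbp, a transcription factor driven directly by the clock, had levels of 5.42, 4.99 and 5.61 on the day 11 arrays, none detected, against 6.22, 7.17 and 6.77 on the day 4 arrays. Nr1d1, the clock repressor Rev-erb alpha, had 5.70, 5.28 and 6.37 at day 11, also not detected, against 7.17, 7.07 and 6.94 at day 4. Dbp and Nr1d1 met the filter only through the day 4 arrays, which favours a lower value at day 11. Both are among the 4 genes without overlap and the 3 with an unadjusted p under 0.05. Nr1d2, a relative of Nr1d1 detected on all 6 arrays, had 9.51, 9.47 and 9.59 at day 11. Its levels were 10.39, 10.29 and 9.90 at day 4 and 9.76 to 10.08 in PBS. Per1, Per2 and Arntl had differences of -0.19, 0.10 and -0.21 with overlapping groups, and 1 further probe each of Per1 and Per2 gave 0.09 and -0.32. The labels give no hour at which nodes were taken.

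Mrps6, a subunit of the mitochondrial ribosome detected on all 6 arrays, had levels of 8.38, 8.09 and 8.02 at day 11, against 8.95, 9.05 and 9.25 at day 4. Ppp1r3c, a glycogen-targeting phosphatase subunit, had 8.03, 7.68 and 8.0 at day 11, against 8.60, 8.85 and 8.65 at day 4 and 9.54, 9.21 and 9.10 in PBS. Nrep, a small protein linked to TGF-beta responses and regeneration, had 9.49, 9.48 and 9.68 at day 11, against 8.76, 8.28 and 8.60 at day 4. These 3 genes were picked after their values were seen, and none passed the adjusted threshold.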
